A study of Mus musculus with 18 samples.

Results

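The genes described are those of the NF-kB transcription factor subunits (Rela, Rel, Relb, Nfkb1 and Nfkb2), of the IkB proteins Nfkbia, Nfkbib, Nfkbie and Nfkbiz, and of the IkB kinase Ikbke. They were chosen by name. Of the 10 symbols, 9 had a probe set in the values used here, with 18 probe sets in all, and Nfkb1 was not analysed here. All 18 probe sets passed the filter on low signal (at or above the array's median on at least 3 arrays), which kept 25612 of 45101 probe sets and left 11547 genes tested.

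RAW264.7 cells, a mouse macrophage line, were treated for 8 h and profiled on Affymetrix arrays. The groups were 10 ug/mL of an H. perforatum sub-fraction (a plant extract of St John's wort) with LPS, a mixture with LPS, solvent with LPS, and the same 3 treatments without LPS. The mixture, labelled 4-component-system, held pseudohypericin (0.03 uM), amentoflavone (0.07 uM), quercetin (0.08 uM) and chlorogenic acid (0.2 uM). The solvent was 0.1% DMSO in medium, called vehicle below, and LPS (bacterial lipopolysaccharide, a ligand of Toll-like receptor 4) was given at 10 ug/mL. No DMSO content was recorded in the labels used here for the fraction and mixture groups. All groups were kept in the dark during dosing and then had 30 min of ambient light. Each of the 6 groups had 3 arrays, and the labels do not say whether these came from separate cultures, so the spread that the p-values measure may be technical. RAW264.7 is 1 transformed line, so no primary macrophages were measured. All 8 macrophage markers, Csf1r, Lyz2 and Cd68 among them, lay above the array median on 18 of 18 arrays. Of 14 markers of other cell types, 13 had a probe set and 4 (Epcam, Krt8, Col1a2 and Mpo) passed the filter, with mean intensities between 42.0 and 69.0.

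NF-kB is a family of dimeric transcription factors that IkB proteins hold in the cytoplasm of resting cells. Toll-like receptor signals activate the IkB kinase complex, IkB is degraded, and dimers such as RelA with p50 enter the nucleus, where they switch on inflammatory genes together with genes of their own inhibitors. Nfkb2 and Relb belong to a slower, noncanonical branch, and Nfkbiz encodes a nuclear IkB that acts with NF-kB on chromatin.

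Promoter windows from RefSeq (build GRCm38.p6) are shown because several of these genes changed together, and letters that match the NF-kB consensus stand in capitals. Each window runs from 250 bases before to 50 bases after an annotated transcript start. The Nfkb2 window is chr19:46304487-46304786 on the plus strand, that of Rel chr11:23770920-23771219 on the minus strand and that of Nfkbia chr12:55492598-55492897 on the minus strand. The Nfkbie and Rela windows are chr17:45555450-45555749 and chr19:5637291-5637590, both on the plus strand, and the Ikbke window is chr1:131279514-131279813 on the minus strand.
Nfkb2: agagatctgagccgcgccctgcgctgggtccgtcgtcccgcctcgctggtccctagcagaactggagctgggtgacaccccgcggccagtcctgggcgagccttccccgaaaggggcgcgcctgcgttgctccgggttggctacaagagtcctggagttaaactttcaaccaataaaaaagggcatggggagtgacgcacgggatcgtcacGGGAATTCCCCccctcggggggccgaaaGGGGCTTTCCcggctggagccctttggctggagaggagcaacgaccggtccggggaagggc
Rel: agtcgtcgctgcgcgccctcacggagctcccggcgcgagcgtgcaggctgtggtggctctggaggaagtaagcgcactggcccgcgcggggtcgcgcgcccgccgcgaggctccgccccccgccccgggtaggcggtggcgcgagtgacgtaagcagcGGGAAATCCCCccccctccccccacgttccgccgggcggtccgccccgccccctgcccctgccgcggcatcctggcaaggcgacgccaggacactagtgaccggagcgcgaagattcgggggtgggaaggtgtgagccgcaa
Nfkbia: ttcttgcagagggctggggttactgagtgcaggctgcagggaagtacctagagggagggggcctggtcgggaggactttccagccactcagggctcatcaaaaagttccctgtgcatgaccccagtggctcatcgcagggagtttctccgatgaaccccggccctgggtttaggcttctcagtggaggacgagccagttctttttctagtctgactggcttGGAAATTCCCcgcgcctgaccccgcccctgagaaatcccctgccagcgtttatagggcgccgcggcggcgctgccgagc
Nfkbie: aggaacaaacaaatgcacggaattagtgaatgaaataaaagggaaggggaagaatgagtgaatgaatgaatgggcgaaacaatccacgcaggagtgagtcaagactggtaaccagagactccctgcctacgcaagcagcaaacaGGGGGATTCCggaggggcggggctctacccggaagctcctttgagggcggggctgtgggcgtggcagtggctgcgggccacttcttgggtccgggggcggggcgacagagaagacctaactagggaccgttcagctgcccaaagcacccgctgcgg
Rela: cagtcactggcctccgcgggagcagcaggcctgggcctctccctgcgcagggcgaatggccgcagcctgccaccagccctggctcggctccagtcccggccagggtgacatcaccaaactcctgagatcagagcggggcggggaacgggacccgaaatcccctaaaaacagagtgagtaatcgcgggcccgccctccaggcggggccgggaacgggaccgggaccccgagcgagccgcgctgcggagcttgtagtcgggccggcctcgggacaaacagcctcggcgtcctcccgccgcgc
Ikbke: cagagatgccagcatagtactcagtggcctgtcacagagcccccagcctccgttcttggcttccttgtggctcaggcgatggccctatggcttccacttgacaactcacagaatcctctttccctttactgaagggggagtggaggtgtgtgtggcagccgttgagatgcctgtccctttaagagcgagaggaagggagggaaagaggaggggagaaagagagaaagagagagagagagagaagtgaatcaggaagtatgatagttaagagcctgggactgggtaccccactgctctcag

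The consensus, 10 bases long, was searched on both strands, and overlapping matches were counted. The table held 3 Nfkb2 windows, of which 1 is shown, and the other 2 held 2 and 1 matches. In the Nfkb2 window shown matches began at -39, -38 and -11, the start base being 0, and the first 2 overlap. The Rel window held overlapping matches at -92 and -91, the Nfkbia window 1 at -29 and the Nfkbie window 1 at -106. Windows of 7 of these genes were in the table, and 4 of them (Nfkb2, Rel, Nfkbia and Nfkbie) held a match in at least 1 window, while Rela, Nfkbib and Ikbke held none. No window of Relb, Nfkbiz or Nfkb1 was in the table, so nothing is said here of their promoters. By window, 6 of the 9 of these genes (66.7%) held a match, 3 of the 6 being those of Nfkb2. The Nfkb2 windows that start at 46305445 and 46305680 overlap, and the GGGACTTTCC match in both is the same site. Among all 32851 windows, 2779 (8.459%) held a match and 402 (1.224%) held at least 2. These are shares of windows, and the share of all genes with a match was not counted. A match describes the letters only, and no match says only that these letters are not in this window.

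With LPS, 7 of the 9 genes rose in fraction-treated cells, 8 in mixture-treated cells and 8 in vehicle-treated cells, and none of the 9 fell in any of the 3. Rela alone passed the threshold in none of these comparisons. The call was an adjusted p under 0.05 from limma, by the Benjamini-Hochberg method across every tested gene. Over all genes, 11.5% rose and 25.8% fell with LPS in fraction-treated cells, 8.32% rose and 16.3% fell in mixture-treated cells, and 10.1% rose and 21.8% fell in vehicle-treated cells. The median log2 difference of the 9 genes was 1.65 in fraction-treated, 1.61 in mixture-treated and 1.51 in vehicle-treated cells, where all genes had medians of -0.11, -0.07 and -0.07. Centring each array on its median moved the median of all genes by 0.19 in fraction-treated, 0.13 in mixture-treated and 0.19 in vehicle-treated cells, and turned the split of calls to 2582 higher and 1694 lower (1330 and 2979 as tested), 1689 and 1092 (961 and 1883) and 2366 and 1351 (1161 and 2519). Within each treatment the arrays with and without LPS did not overlap for 8 of the 9 genes, as for 49.1% of all genes in fraction-treated, 40.3% in mixture-treated and 41.5% in vehicle-treated cells. The direction of each of these 8 genes was the same with centring. In bulk RNA, fewer cells of a type and less RNA per cell cannot be told apart.

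**Figure D1:**
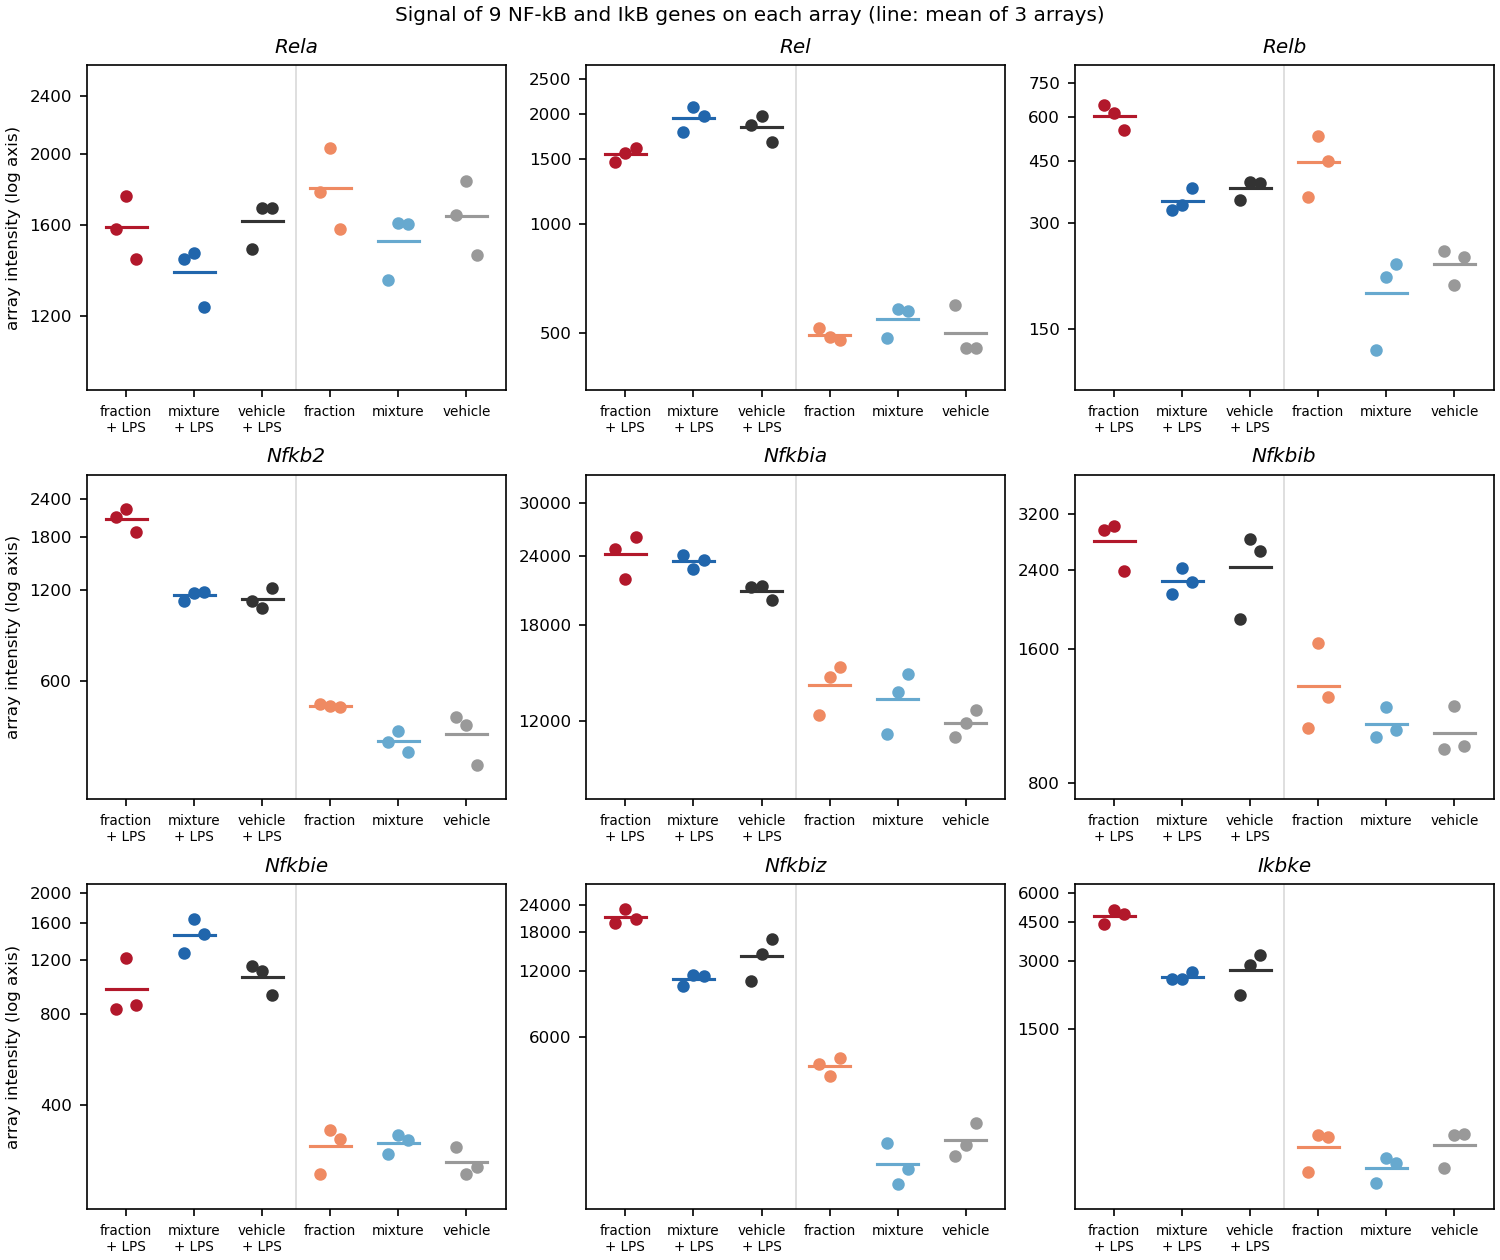
Array intensity (log axis) of the brightest probe set of each of the 9 genes on all 18 arrays, by group, with the mean of 3 arrays as a line. In 8 panels the groups with LPS lie above their counterparts without it, with no overlap within a treatment, and the Rela groups overlap.

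Rela, the gene of the p65 subunit that activates transcription in the main NF-kB dimer, had array intensities of 1577, 1752 and 1437 in fraction-treated cells with LPS, 1436, 1466 and 1236 in mixture-treated cells with LPS and 1484, 1686 and 1689 in vehicle-treated cells with LPS. Without LPS it had 1773, 2035 and 1579.96 in fraction-treated, 1343, 1609 and 1604 in mixture-treated and 1651, 1834 and 1454 in vehicle-treated cells. Every group with LPS overlapped its counterpart without LPS. The LPS difference was -0.17 ± 0.12 (log2 ± standard error, n = 3 per group here and below; limma adjusted p = 0.26) in fraction-treated cells, -0.14 ± 0.12 in mixture-treated cells (adjusted p = 0.44) and -0.02 ± 0.12 in vehicle-treated cells (adjusted p = 0.92). In vehicle-treated cells the 95% interval of the Rela difference was -0.26 to 0.22.

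Rel encodes c-Rel, a subunit that is abundant in cells of the immune system. Its intensities with LPS were 1480.5, 1564 and 1612 in fraction-treated, 1781, 2094 and 1971 in mixture-treated and 1867, 1969 and 1678 in vehicle-treated cells. Without LPS they were 517, 487 and 479.6 in fraction-treated, 485, 584 and 575 in mixture-treated and 597, 454 and 454 in vehicle-treated cells. All 9 arrays with LPS lay above all 9 without it. Rel was 3.14-fold higher with LPS in fraction-treated cells (1.65 ± 0.11, adjusted p = 1.3e-09), 3.56-fold higher in mixture-treated cells and 3.69-fold higher in vehicle-treated cells (1.88 ± 0.11, adjusted p = 3.7e-10).

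Relb, which encodes the subunit that pairs with p52 in the noncanonical branch, had intensities with LPS of 649, 616 and 551 in fraction-treated, 327, 337 and 378 in mixture-treated and 349.8, 392 and 389 in vehicle-treated cells. Without LPS the values were 357, 532 and 451 in fraction-treated, 131, 211 and 229.8 in mixture-treated and 251, 200.4 and 240.4 in vehicle-treated cells. The fraction arrays without LPS reached into and above the range of vehicle arrays with LPS. LPS differences were 0.45 ± 0.18 in fraction-treated cells (adjusted p = 0.054, with the 3 LPS arrays all higher), 0.90 ± 0.18 in mixture-treated cells (9.0e-04 as adjusted p, 1.87-fold) and 0.71 ± 0.18 in vehicle-treated cells (adjusted p = 0.0045, 1.64-fold).

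Nfkb2 encodes p100, which is cut to the DNA-binding subunit p52. With LPS it had intensities of 2089, 2226 and 1868 in fraction-treated, 1101, 1179 and 1181 in mixture-treated and 1105, 1050.3 and 1224 in vehicle-treated cells. Without LPS it had 505, 495 and 491 in fraction-treated, 377, 411 and 349 in mixture-treated and 455, 431 and 316 in vehicle-treated cells. The fraction arrays with LPS stood above all other arrays. The LPS difference was 4.14-fold in fraction-treated cells (2.05 ± 0.12, adjusted p = 1.8e-10), 3.05-fold in mixture-treated cells and 2.84-fold in vehicle-treated cells (1.51 ± 0.12, adjusted p = 1.5e-08).

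Nfkbia, the gene of IkBalpha and a well-known NF-kB target that closes a negative feedback loop, was read by 5 probe sets. The brightest had 24763, 21848 and 26029.6 in fraction-treated, 24183, 22734 and 23599.6 in mixture-treated and 21116, 21211 and 19971 in vehicle-treated cells with LPS. Without LPS it had 12301, 14491 and 15102 in fraction-treated, 11358, 13588 and 14617 in mixture-treated and 11236, 11915 and 12562 in vehicle-treated cells. No array without LPS reached any array with LPS. This probe set was 1.74-fold higher with LPS in fraction-treated cells, 1.79-fold in mixture-treated cells and 1.75-fold in vehicle-treated cells (0.80 ± 0.092, adjusted p = 1.8e-06). The brightest signal of any probe set on an array ranged from 26264 to 41310 over the 18 arrays, so these LPS values lie near the top of the scale, and the part of this in the smaller fold was not tested.

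Nfkbib, the gene of IkBbeta, had 2954, 3019 and 2392 in fraction-treated, 2120.3, 2428 and 2263 in mixture-treated and 1865, 2819 and 2649.98 in vehicle-treated cells with LPS. Without LPS its intensities were 1061, 1650.3 and 1249 in fraction-treated, 1017, 1184 and 1052 in mixture-treated and 957, 1190.2 and 971 in vehicle-treated cells. The LPS arrays were the higher ones within each treatment, and the 3 treatments overlapped each other at each LPS state. It rose 2.14-fold in fraction-treated, 2.09-fold in mixture-treated and 2.33-fold in vehicle-treated cells (1.22 ± 0.16, adjusted p = 7.4e-06).

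Nfkbie, the gene of IkBepsilon, another cytoplasmic inhibitor, had 826, 1219.6 and 854 in fraction-treated, 1266, 1646 and 1467 in mixture-treated and 1148, 1106 and 926 in vehicle-treated cells with LPS. Without LPS it had 236, 332 and 309.8 in fraction-treated, 276, 319 and 307 in mixture-treated and 291, 236 and 249.8 in vehicle-treated cells. The mixture arrays with LPS were the highest group, and the fraction and vehicle arrays with LPS overlapped. LPS raised it 3.29-fold in fraction-treated cells (1.72 ± 0.16), 4.84-fold in mixture-treated cells (2.27 ± 0.16) and 4.09-fold in vehicle-treated cells (2.03 ± 0.16, adjusted p = 1.1e-08).

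Nfkbiz encodes IkBzeta, a nuclear cofactor needed for secondary targets such as Il6 in mouse macrophages. Its brightest probe set had 19814, 22828 and 20727 in fraction-treated, 10225, 11474 and 11334 in mixture-treated and 10835, 14297 and 16717 in vehicle-treated cells with LPS. Without LPS the intensities were 4548, 3986 and 4825 in fraction-treated, 1975, 1295 and 1519 in mixture-treated and 1729, 1936 and 2447 in vehicle-treated cells. The fraction arrays formed the highest group at each LPS state, and those of mixture and vehicle overlapped each other. LPS raised Nfkbiz 4.75-fold in fraction-treated cells (2.25 ± 0.15, adjusted p = 1.6e-09), 7.00-fold in mixture-treated cells and 6.81-fold in vehicle-treated cells (2.77 ± 0.15, adjusted p = 1.8e-10). The fraction values with LPS are close to those of Nfkbia with LPS, near the top of the scale. The part of this in the smaller fold was not tested.

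Ikbke encodes IKKepsilon, a kinase related to TBK1 that takes part in interferon induction and whose gene is itself inducible. With LPS it had 4370.05, 5070.4 and 4839.96 in fraction-treated, 2505, 2486 and 2683 in mixture-treated and 2119.7, 2868 and 3201 in vehicle-treated cells. Without LPS it had 345, 507 and 494 in fraction-treated, 308, 397 and 378 in mixture-treated and 359, 505 and 511 in vehicle-treated cells. The 3 groups without LPS overlapped, while the fraction arrays with LPS lay above all others. The rise with LPS was 10.8-fold in fraction-treated cells (3.43 ± 0.17, adjusted p = 1.1e-11), 7.13-fold in mixture-treated cells (2.83 ± 0.17) and 5.95-fold in vehicle-treated cells (2.57 ± 0.17, adjusted p = 9.6e-10).

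With LPS, the fraction raised Nfkb2, Ikbke, Relb and Nfkbiz relative to vehicle, 4 of the 9 genes, and lowered none. Over all genes 11.1% were higher and 12.7% lower in this comparison. Nfkb2 averaged 2061 ± 181 in fraction-treated cells with LPS and 1126 ± 88.9 in vehicle-treated cells with LPS (SD, n = 3 each), a 1.83-fold difference (0.87 ± 0.12, adjusted p = 2.9e-05). Ikbke averaged 4760.1 ± 357 in fraction-treated and 2729 ± 554 in vehicle-treated cells (1.77-fold, 0.82 ± 0.17, adjusted p = 0.0012). For each of these 4 genes the lowest fraction array lay above the highest vehicle array. Relb averaged 605 ± 49.6 in fraction-treated and 377 ± 23.8 in vehicle-treated cells (1.60-fold, 0.68 ± 0.18, adjusted p = 0.0088), and Nfkbiz 21123 ± 1545 and 13949 ± 2956 (1.54-fold, 0.62 ± 0.15, adjusted p = 0.0060).

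The inhibitor genes Nfkbia, Nfkbib and Nfkbie, and the subunit genes Rel and Rela, did not pass the threshold for the fraction with LPS. Nfkbia differed by 0.22 ± 0.092 (adjusted p = 0.095), with all 3 fraction arrays above the vehicle arrays, and Rel by -0.24 ± 0.11 (adjusted p = 0.13), with all 3 below. Nfkbib, Nfkbie and Rela had overlapping arrays and differences of 0.21 ± 0.16, -0.15 ± 0.16 and -0.03 ± 0.12. The arrays did not overlap for 6 of the 9 genes, where 36.1% of all genes did not overlap.

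Without LPS, the fraction raised Nfkbiz, Relb and Nfkb2 relative to vehicle, 3 of the 9 genes, and lowered none, where 15.9% of all genes were higher and 15.3% lower. Nfkbiz averaged 4453 ± 427 in fraction-treated and 2037 ± 369 in vehicle-treated cells (2.20-fold, 1.14 ± 0.15, adjusted p = 1.5e-05). Relb averaged 447 ± 87.2 in fraction-treated and 231 ± 26.7 in vehicle-treated cells (1.92-fold, 0.94 ± 0.18, adjusted p = 4.9e-04). These 2 genes were thus higher in fraction-treated cells at both LPS states. Nfkb2 averaged 497 ± 7.46 in fraction-treated and 401 ± 74.0 in vehicle-treated cells (1.26-fold, 0.33 ± 0.12, adjusted p = 0.042). That call was lost in 13 of 28 alternatives, and without vehicle array 3 the difference was 0.17 with an adjusted p of 0.28.

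Ikbke, which the fraction raised with LPS, differed by -0.03 ± 0.17 without it (adjusted p = 0.90, 95% interval -0.38 to 0.31). Nfkbib differed by 0.33 ± 0.16 (adjusted p = 0.13) and Nfkbia by 0.23 ± 0.092 (adjusted p = 0.069). The other 3 genes, Nfkbie, Rela and Rel, lay between -0.01 and 0.17. The 3 genes past the threshold were also the 3 whose fraction and vehicle arrays did not overlap, where 42.9% of all genes did not overlap.

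**Figure D2:**
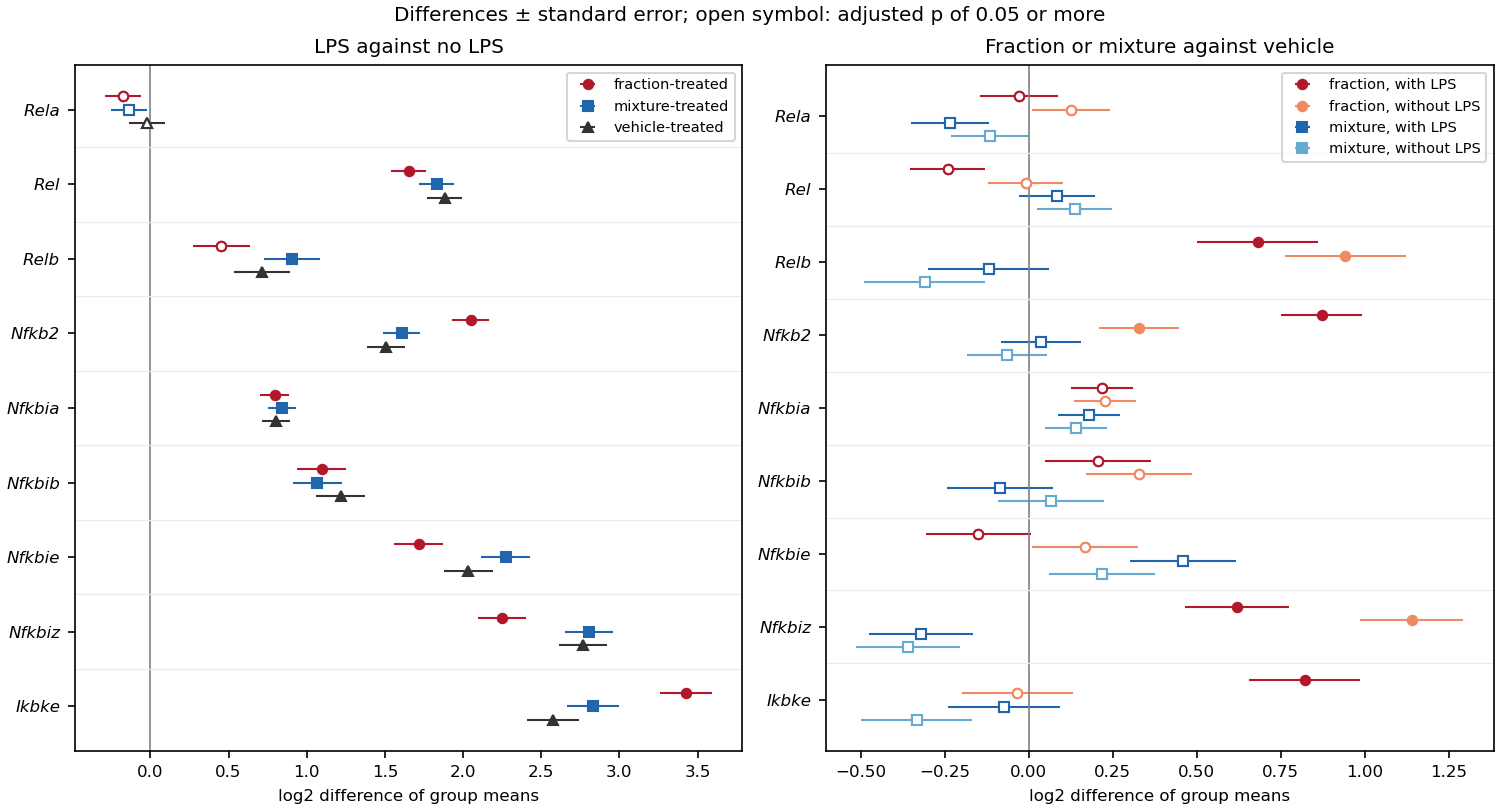
Log2 differences of group means ± standard error for the 9 genes (3 arrays per group), LPS against no LPS at left and fraction or mixture against vehicle at right. Filled symbols had an adjusted p under 0.05; at right they are Nfkb2, Relb and Nfkbiz at both LPS states and Ikbke with LPS, all for the fraction.

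The 4-compound mixture moved none of the 9 genes past the threshold in limma, with or without LPS, and 0% of all genes were called in either case. At an unadjusted p under 0.05, 1 of 9 genes without LPS (Nfkbiz) and 1 of 9 with LPS (Nfkbie) would pass, where 4.89% and 8.09% of all genes would. Nfkbie averaged 1459.9 ± 190.1 in mixture-treated cells with LPS and 1059.9 ± 118 in vehicle-treated cells with LPS. Its 3 mixture arrays were higher than the vehicle arrays, with a difference of 0.46 ± 0.16 (95% interval 0.13 to 0.79, adjusted p = 0.59). Nfkbiz differed by -0.32 ± 0.15 with LPS (95% interval -0.64 to 0.003) and by -0.36 ± 0.15 without it (-0.68 to -0.04). At this brightest probe set the sign was opposite to that of the fraction in each case. Its other probe sets were also lower with the mixture and LPS. Without LPS, mixture-treated and vehicle-treated cells had mean log2 values of 8.88 and 8.95 at 1448728_a_at. At 1457404_at they had 8.45 and 8.32, the same sign as the fraction. For Nfkb2, Relb and Ikbke with LPS the intervals were -0.21 to 0.29, -0.50 to 0.26 and -0.42 to 0.27. The groups did not overlap for 3 genes with LPS (Nfkbia, Nfkbie and Rela) and for none without it, where 12.6% and 8.31% of all genes did not overlap.

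Set directly against the mixture with LPS, the fraction had higher Nfkbiz, Ikbke, Nfkb2 and Relb and lower Nfkbie and Rel. Over all genes 12% were higher and 16.2% lower. Nfkbiz averaged 21123 ± 1545 in fraction-treated and 11011 ± 685 in mixture-treated cells (1.92-fold, 0.94 ± 0.15, adjusted p = 1.4e-04). The differences of Ikbke, Nfkb2 and Relb were 0.89 ± 0.17, 0.83 ± 0.12 and 0.80 ± 0.18. At the second Nfkb2 probe set, fraction-treated and mixture-treated cells with LPS averaged 394 and 388. The Nfkb2 difference was thus seen at the brighter probe set only. Nfkbie averaged 967 ± 219 in fraction-treated and 1459.9 ± 190.1 in mixture-treated cells, 1.53-fold lower (-0.61 ± 0.16, adjusted p = 0.0065). Rel averaged 1552 ± 66.7 and 1949 ± 158 (-0.33 ± 0.11, adjusted p = 0.035), a call that was lost without fraction array 1, 2 or 3 or without mixture array 2 or 3 (adjusted p 0.056 to 0.14). The groups did not overlap for 6 of the 9 genes, where 42.8% of all genes did not overlap.

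Without LPS, the fraction had higher Nfkbiz, Relb and Nfkb2 than the mixture, 3 of 9 genes, with none lower, where 17% of all genes were higher and 15.4% lower. Nfkbiz differed 2.82-fold (1.50 ± 0.15, adjusted p = 5.0e-07), Relb 2.38-fold (1.25 ± 0.18, adjusted p = 2.7e-05) and Nfkb2 1.31-fold (0.39 ± 0.12, adjusted p = 0.016). The Nfkb2 call was lost without mixture array 3 (adjusted p = 0.070) and without the 6 arrays numbered 1 (0.092). For these 3 genes the groups did not overlap, as for 44.7% of all genes. These comparisons share the fraction arrays with those against vehicle, so the values stand side by side and are not independent.

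Whether the LPS response differed between fraction-treated and vehicle-treated cells was tested as an interaction. None of the 9 genes passed in limma, where 0.892% of all genes passed upward and 1.25% downward. At an unadjusted p under 0.05, 3 of the 9 would pass (Ikbke, Nfkb2 and Nfkbiz), where 13.6% of all genes would. Ikbke had an interaction of 0.85 ± 0.23 (adjusted p = 0.068, 95% interval 0.36 to 1.35), the LPS difference being 3.43 in fraction-treated and 2.57 in vehicle-treated cells. Nfkb2 had 0.54 ± 0.17 (adjusted p = 0.12) and Nfkbiz -0.52 ± 0.22 (adjusted p = 0.28). Each value is from the brightest probe set of the gene. That of Nfkbiz lies near the top of the scale with fraction and LPS. The other probe sets of Nfkb2 and Nfkbiz, described below, showed little such difference. For Ikbke the call depended on the setting, since its interaction passed under 5 of 28 alternatives. These were a block for the replicate number, log2 of the value plus 32, and fits with arrays left out. The arrays left out were vehicle array 1 (adjusted p = 0.024), vehicle array 3 with LPS (0.0496) or the 6 arrays numbered 1 (0.021). The Nfkb2 interaction passed without vehicle array 3 (adjusted p = 0.019). For the mixture 0% of all genes and none of the 9 passed, also at an unadjusted p under 0.05, and the 9 interactions ran from -0.15 to 0.26.

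Probe sets of the same gene did not always give the same size of change. For Nfkb2, the second probe set (1429128_x_at) had intensities of 502, 361 and 318 in fraction-treated and 362, 295 and 324 in vehicle-treated cells with LPS. The arrays of these groups overlapped, and its difference was 0.24 ± 0.20 (adjusted p = 0.45 over all probe sets), against 0.87 for the brighter one (1425902_a_at). Both Nfkb2 probe sets rose with LPS in vehicle-treated cells, by 0.67 ± 0.20 for the second and 1.51 ± 0.12 for the brighter one. Mean log2 values of the second were 8.59, 8.60 and 8.35 in fraction-treated, mixture-treated and vehicle-treated cells with LPS. They were 7.88, 7.33 and 7.67 without it. At this probe set the fraction did not stand above the mixture with LPS, and its difference from vehicle was similar at both LPS states. The second probe set is the dimmer one and of the kind (x_at) whose probes can also match other sequences.

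Nfkbiz gave the same direction at all 3 probe sets. The fraction raised them by 0.62 ± 0.15, 1.05 ± 0.12 and 1.59 ± 0.13 with LPS and by 1.14 ± 0.15, 1.20 ± 0.12 and 1.58 ± 0.13 without it. The third of these (1457404_at) had intensities of 5727, 4809 and 5286 in fraction-treated and 1628, 1658 and 1966 in vehicle-treated cells with LPS. All 3 fraction arrays were far above the vehicle arrays there. Only at the brightest probe set was the fraction's difference clearly smaller with LPS (0.62) than without it (1.14). The others gave 1.05 and 1.20, and 1.59 and 1.58, with and without LPS. The brightest probe set lies near the top of the scale with fraction and LPS, and the part of this in its smaller difference was not tested.

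The 5 Nfkbia probe sets rose with LPS in vehicle-treated cells by between 0.80 and 1.77, the brightest by least. For the fraction against vehicle with LPS, 2 of the 5 passed the threshold. One (1448306_at) had 16239, 16323 and 16009 in fraction-treated and 11033, 12849 and 12729 in vehicle-treated cells (0.41 ± 0.11, adjusted p = 0.0098). The other (1420089_at) had 747, 905 and 937 in fraction-treated and 422, 468 and 578 in vehicle-treated cells (0.82 ± 0.14, adjusted p = 3.1e-04). In both, no vehicle array reached a fraction array. The remaining 3 differed by 0.12 to 0.32, so whether the fraction raised Nfkbia with LPS depends on the probe set. Without LPS none of the 5 passed.

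The second Nfkbie probe set (1431843_a_at) fell short of the threshold for the fraction against the mixture with LPS (-0.50 ± 0.21, adjusted p = 0.092). The second Nfkbib probe set (1446718_at) was under the array median on 9 of 18 arrays, and its LPS difference in vehicle-treated cells was 2.55 ± 0.59. Rela, Rel, Relb and Ikbke had 1 probe set each. The probe sets of Nfkbib and Nfkbie used above are of the kind (s_at) whose probes can match several transcripts.

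**Figure D3:**
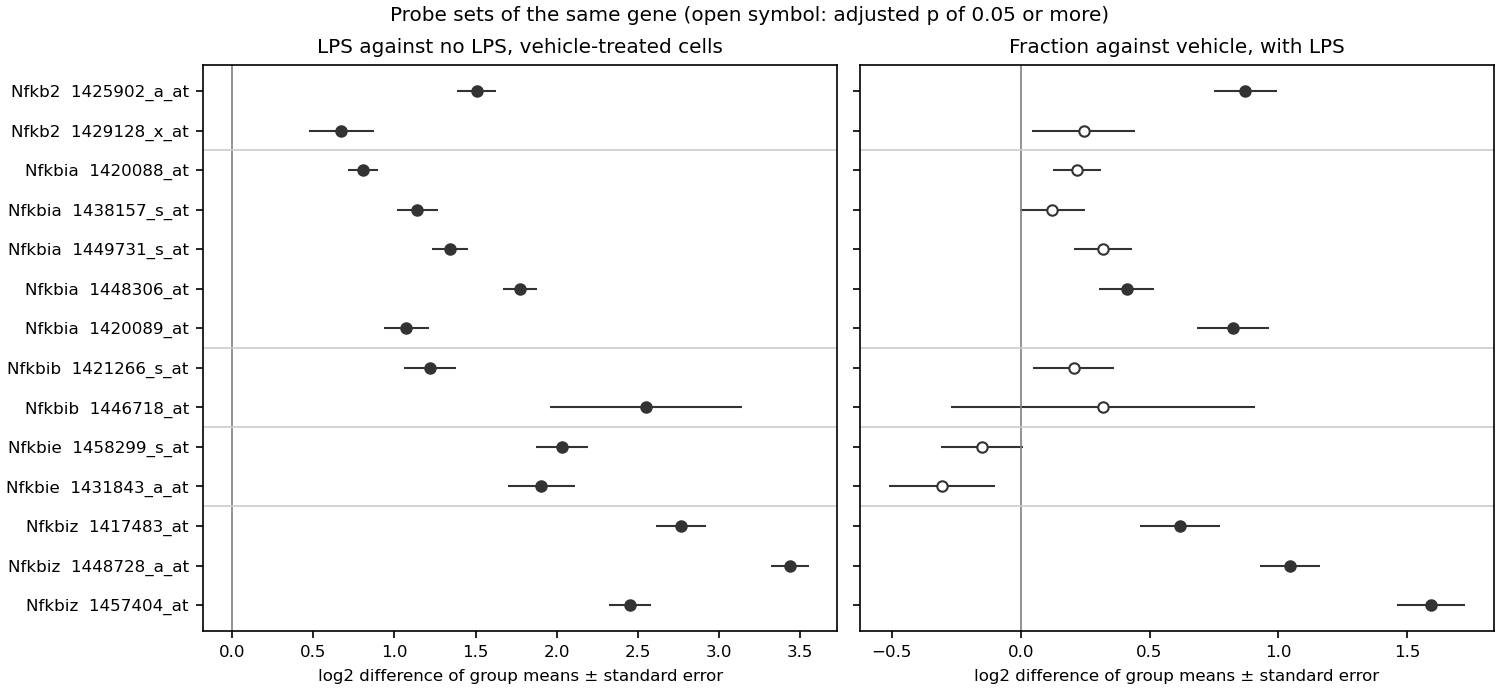
Log2 differences ± standard error at each probe set of the 5 genes with more than 1, brightest first within a gene, for LPS in vehicle-treated cells at left and fraction against vehicle with LPS at right. All 14 probe sets were higher with LPS; for the fraction the 3 Nfkbiz, 2 of 5 Nfkbia and 1 of 2 Nfkb2 probe sets passed the threshold (filled symbols).

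The rest of the pathway was described with lists of known members, with the shares of all genes called as given above for each comparison. The 3 other IkB family genes, Bcl3, Nfkbid and Nfkbil1, all rose with LPS in vehicle-treated cells. For the fraction with LPS, 2 of the 3 fell. Nfkbid, which encodes the nuclear protein IkBNS, averaged 2534 in fraction-treated and 3898 in vehicle-treated cells with LPS (-0.63 ± 0.15, adjusted p = 0.0038), and 791 and 1804 without it (-1.18 ± 0.15, adjusted p = 5.7e-06). Bcl3, a nuclear IkB that binds p50 and p52 dimers, averaged 700.1 in fraction-treated and 1743 in vehicle-treated cells with LPS (-1.20 ± 0.26, adjusted p = 0.0024), but the arrays of these groups overlapped. Nfkbil1 was higher with the fraction without LPS (0.55 ± 0.14, adjusted p = 0.0053), a call lost without the 6 arrays numbered 1 (0.36, adjusted p = 0.095). Its rise with LPS in vehicle-treated cells (0.49 ± 0.14) missed the threshold without vehicle array 1 (adjusted p = 0.079) or vehicle array 2 with LPS (0.055). Over the 3 genes the median difference was 1.12 for LPS in vehicle-treated cells, -0.63 for the fraction with LPS and -0.11 for the fraction without it, where all genes had -0.07, -0.02 and 0.02. So Nfkbiz and Nfkbid, both nuclear IkB genes, moved in opposite directions with the fraction at both LPS states.

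The next list held 12 genes of the IkB kinase complex and of kinases linked to it, not all of them upstream of it. Of these, 9 were tested, and 3 rose and none fell with LPS in vehicle-treated cells: Map3k8, Tbk1 and Tab2. Map3k8, the gene of the kinase TPL2, rose by 1.02 ± 0.17 with LPS in vehicle-treated cells. With LPS it was the 1 gene of these 9 that changed with the fraction, averaging 364 in fraction-treated and 885 in vehicle-treated cells (-1.30 ± 0.17, 2.45-fold lower, adjusted p = 2.1e-05). Without LPS it was also lower (-0.56 ± 0.17, adjusted p = 0.018), a call lost without fraction array 1 or 2 or without vehicle array 1 or 3 (adjusted p 0.053 to 0.089), and Ikbkg, the regulatory subunit of the kinase complex, was higher (0.59 ± 0.12, adjusted p = 8.9e-04). The median difference of the tested genes was 0.08 for LPS in vehicle-treated cells, and for the fraction -0.06 with LPS and -0.01 without it.

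Among 16 adaptor, IRAK and TRAF genes, 12 were tested, and 8 rose and 1 fell with LPS in vehicle-treated cells. Traf1, a TRAF protein gene induced by NF-kB that also stands among the target genes below, rose by 2.55 ± 0.16 and Malt1 by 2.27 ± 0.18. For the fraction, 4 rose and 1 fell with LPS, and 2 rose and 2 fell without it. Tank, which encodes a TRAF-binding scaffold of the TBK1 and IKKepsilon kinases, averaged 4452 in fraction-treated and 2096 in vehicle-treated cells with LPS (1.11 ± 0.18, adjusted p = 1.9e-04), and 2794 and 1239.8 without it (1.17 ± 0.18, adjusted p = 6.5e-05). Myd88, the common adaptor of Toll-like receptors, was lower with the fraction both with LPS (-0.53 ± 0.12, adjusted p = 0.0029) and without it (-0.38 ± 0.12, adjusted p = 0.020), the call without LPS being lost without fraction array 3 (adjusted p = 0.15) or vehicle array 2 (0.11). Tirap, which links Toll-like receptor 4 to Myd88, was lower without LPS (-0.95 ± 0.13, adjusted p = 1.6e-05). Medians over the 12 were 0.53 for LPS in vehicle-treated cells, and for the fraction 0.02 with LPS and 0.04 without it.

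All 12 genes of a list of other inhibitors of NF-kB signalling were tested. The list also holds Btrc and Fbxw11, subunits of the ligase that marks IkB for degradation, which are no inhibitors and stand in its counts and medians. With LPS in vehicle-treated cells 4 rose, Tnfaip3, Zc3h12a, Irak3 and Tnip1, and 2 fell, the inhibitor Pdlim2 and the ligase subunit Btrc, while after median centring 7 rose and 1 fell. The median of the 12 was 0.12 for LPS in vehicle-treated cells, and for the fraction 0.11 with LPS and 0.25 without it. Tnfaip3, the gene of the ubiquitin-editing enzyme A20, rose by 3.26 ± 0.20. For the fraction, 4 rose and none fell without LPS, where Tnfaip3 differed by 0.83 ± 0.20 (adjusted p = 0.0040). The other 3 were Irak3, Cyld and Fbxw11, at 0.81, 0.32 and 0.28, so 3 of the 4 were inhibitors and 1 a ligase subunit. Without the 2 ligase subunits, left out after their values were seen, 4 of 10 genes rose and 1 fell with LPS in vehicle-treated cells (median 0.21), and 3 rose and none fell with the fraction without LPS (median 0.26). Without fraction array 1 Irak3 and Cyld missed the threshold (adjusted p = 0.082 and 0.070), as did Cyld and Fbxw11 without vehicle array 2 (0.083 and 0.062) and Irak3 without fraction array 2 (0.079), vehicle array 1 (0.053) or vehicle array 3 (0.063). With LPS, Irak3 was higher (0.79 ± 0.26, adjusted p = 0.034) and Otud7b lower (-0.36 ± 0.13, adjusted p = 0.045), and both calls were lost without fraction array 1 (adjusted p = 0.15 each) or vehicle array 1 (0.12 and 0.11), and each without some other single arrays. Both were also lost with no filter (limma adjusted p = 0.055 and 0.061) and with no trend (0.061 and 0.064), and each with some other processing choices.

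Of 24 known NF-kB target genes, 22 rose and none fell with LPS in vehicle-treated cells, with a median of 2.67. With the fraction, 6 rose and none fell with LPS, and 9 rose and 2 fell without it. Tnfaip3 also stands among the other inhibitors, so its rises with LPS and with the fraction without LPS are counted in both lists. The medians of the 24 were 0.27 with LPS and -0.003 without it, where all genes had -0.02 and 0.02. Tnfaip2, a gene induced by tumour necrosis factor, averaged 14189 in fraction-treated and 6214 in vehicle-treated cells with LPS (1.19 ± 0.18, adjusted p = 1.0e-04), and 2353 and 672 without it (1.87 ± 0.18, adjusted p = 2.6e-07). Its probe set is of the kind (x_at) whose probes can also match other sequences. Cd83, a surface protein of activated antigen-presenting cells, averaged 1498 in fraction-treated and 420.1 in vehicle-treated cells without LPS (1.78 ± 0.16, adjusted p = 1.1e-07). Birc3, which encodes a ubiquitin ligase of the pathway, was higher with the fraction and LPS (0.52 ± 0.13, adjusted p = 0.0050). Cxcl2, the gene of a chemokine that draws neutrophils, averaged 6522 in fraction-treated and 1710 in vehicle-treated cells without LPS (1.97 ± 0.20, adjusted p = 4.2e-07).

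Il6, the gene of a secreted inflammatory cytokine, averaged 12247 in fraction-treated and 4184 in vehicle-treated cells with LPS (1.74 ± 0.56, adjusted p = 0.030). That call was lost without any 1 of the fraction arrays with LPS (adjusted p 0.062 to 0.078), without vehicle array 1 with LPS (0.17) and without the 6 arrays numbered 1 (0.21). Il6 also passed without LPS, where every array of both groups lay under its array's median, and no fold is given. The 2 targets that fell with the fraction without LPS, named here after their values were seen, were the cytokine gene Tnf and the chemokine gene Ccl5. Tnf averaged 4144 in fraction-treated and 6488 in vehicle-treated cells (-0.65 ± 0.13, adjusted p = 0.0011). Ccl5 averaged 133.5 in fraction-treated and 235.8 in vehicle-treated cells (-0.84 ± 0.18, adjusted p = 0.0017).

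**Figure D4:**
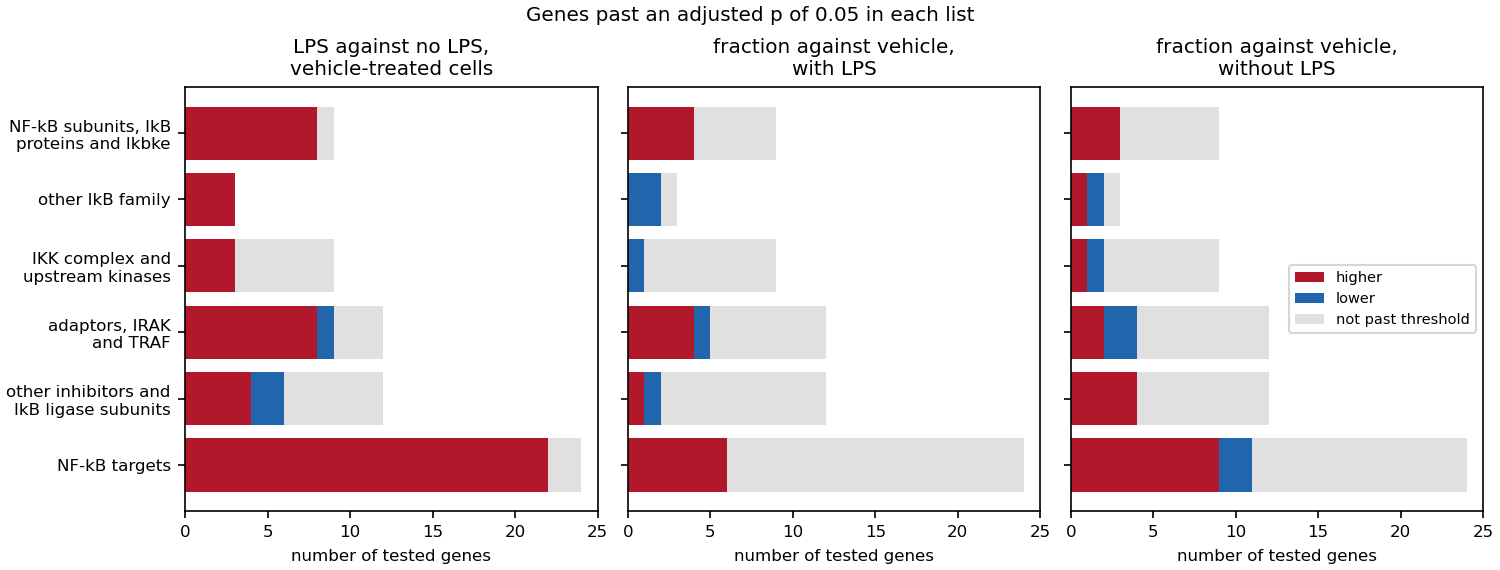
Number of tested genes in each list that were higher, lower or not past an adjusted p of 0.05, for LPS in vehicle-treated cells, fraction against vehicle with LPS and fraction against vehicle without LPS. With LPS alone 22 of 24 targets and 8 of 9 subunit and IkB genes were higher; with the fraction 6 of 24 and 4 of 9 were higher in the presence of LPS, and 9 of 24 and 3 of 9 in its absence.

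The tested genes whose log2 intensities followed each member most closely over the 18 arrays are given as a description. They span the 9 arrays with LPS and the 9 without it, so a gene that moved with LPS correlates with others that did, and all share the same arrays. Rel was most like Il1b (Pearson r = 0.984) and Sdc4 (0.983), Nfkbie like Junb (0.982) and Sdc4 (0.969), and Nfkbia like Ccl3 (0.983) and Srgn (0.977). Ikbke was most like Traf1 (0.995) and Pim1 (0.993), Nfkb2 like Csf2 (0.977) and Il6 (0.974), and Nfkbiz like Tasp1 (0.986) and Ptgs2 (0.979). Nfkbib was most like Tnfrsf1b (0.975) and Edn1 (0.974). Relb was most like Herpud1 and Tmem258 (0.943 each). Among the 8 genes raised by LPS in vehicle-treated cells, pairwise r ran from 0.513 for Rel with Relb to 0.982 for Rel with Nfkbie, and the 7 lowest of the 28 pairs all included Relb.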

How the data were processed

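Total RNA from 18 samples of RAW264.7 cells, 3 per group, was hybridized to Affymetrix mouse expression arrays. The authors deposited linear intensities of 45101 probe sets, made with MAS5 per the submitters' processing notes (version not given in the sources used here). The 2% trimmed mean was 500.0 on each array, and array medians were 52.1 to 66.8. Arrays of 1 group correlated at 0.970 to 0.979. Their number limits the precision.

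Leaving out 64 control probe sets, 34945 had 1 symbol, 932 several and 9160 none, and 34741 symbols were updated by Entrez ID and 204 kept. Intensities under 1 were set to 1 and taken to log2, and probe sets at or above the array median on 3 or more arrays were kept. The brightest stood for each of 11547 genes. One model of 6 group means was fitted with limma 3.58.1 in R 4.3.3 (eBayes with trend, 12 residual degrees of freedom), with two-sided p-values adjusted by Benjamini-Hochberg over all genes in each of 11 comparisons and a threshold of 0.05. Probe sets were fitted the same way over all 25612. The fit was tested on simulated data.

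Members and gene lists were chosen with earlier results of these data known. Named were all members, up to 4 members of each list with the largest difference past the threshold, and the 2 genes most like each member that LPS raised in vehicle-treated cells. Alternatives were the replicate block, median centring, quantile normalization, an added 32 before log2, no filter, a 75th percentile filter, no trend, every probe set, only the compared arrays, each array left out, and the 6 arrays numbered 1 left out.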

Additional observations from a re-analysis of the deposited data

Results flagged for a closer look

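No member of the family met a rule for a closer look. Among the pathway lists, the interaction of fraction and LPS passed the threshold in limma for 5 genes. Their measured difference between fraction and vehicle was thus not the same with LPS as without it. Cxcl2 had an interaction of -1.70 (adjusted p = 0.0028), Cd83 -1.38 (adjusted p = 0.0029), Tnf 1.01 (adjusted p = 0.0071), Ccl5 1.21 (adjusted p = 0.019) and Tirap 0.72 (adjusted p = 0.044), each on the log2 scale and adjusted over all genes, of which 2.14% passed. Cxcl2 averaged 31681 in fraction-treated and 26291 in vehicle-treated cells with LPS. The brightest signal of any probe set on an array ranged from 26264 to 41310. These Cxcl2 values lie near the top of the scale, and the part of this in its interaction was not tested. Tirap stayed past the threshold in 10 of 28 alternatives. The Ccl5 call was lost without fraction array 2, vehicle array 3 or the 6 arrays numbered 1, or with no trend.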

How the results depend on the processing

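No called difference of a member or of a named list gene changed sign. Over 99 member results and 28 alternatives, 2687 of 2772 values kept a call or stayed within 1 standard error of an uncalled value, 28 newly passed the threshold, 20 lost their call and 37 uncalled values moved by more than that. Of 1481 values of 53 list results, 90 lost the call. With the replicate block, the count of members past the threshold became 5 for the fraction against vehicle without LPS and 5 for the fraction against the mixture without LPS (3 each as reported), and 1 for the interaction of fraction and LPS (0 as reported). That interaction count was also 1 with log2 of the value plus 32 and without the 6 arrays numbered 1, and 0 to 1 when each array was left out. The gene was Ikbke (adjusted p = 0.0020 with the block), except Nfkb2 without vehicle array 3. The block also took the NF-kB targets higher with the fraction and LPS to 10 (6 as reported). The cause was not tested. Nfkb2 for the fraction without LPS lost its call in 13 of 28 alternatives, and Relb for LPS in fraction-treated cells passed in 8. Arrays with the same number in different groups had deviations that all correlated above 0 (0.018 to 0.170, 9 of 45 over 0.1, other pairs -0.133 to 0.052), but not every pair was over 0.1, so the numbers were not taken as pairs, although all 18 arrays correlated best with an array of their own number. Signals under the array median, as at the second Nfkbib probe set, limit what can be read there.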
